A study of Zea mays with 24 samples.

Results

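The genes described here encode pyruvate decarboxylase (pdc1, pdc2 and pdc3) and alcohol dehydrogenase (adh1 and adh2) of maize, the enzymes of ethanol fermentation. Every probe set whose annotated symbol or synonym was one of these 5 names was taken, whatever its value, which gave 9 of the 17734 probe sets on the array and 5 of the 1099 genes named there. pdc2 had 4 probe sets, pdc1 had 2, and pdc3, adh1 and adh2 had 1 each. The 9 were followed over 24 arrays, 3 for each of 4 nutrient solutions in shoot and in root.

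Pyruvate decarboxylase uses thiamine pyrophosphate to turn pyruvate into acetaldehyde, and alcohol dehydrogenase, a zinc enzyme, reduces acetaldehyde to ethanol and so returns NAD+ to glycolysis. In maize both enzymes are known for their induction in flooded roots and seedlings, and adh1 is a classic gene of anaerobic gene regulation.

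The plants were seedlings of SKV-616, a quality protein maize inbred line, raised in hydroponic solution for 12 days. They received the solution without ZnSO4 (–Zn), without Fe EDTA (–Fe), without both (–Fe–Zn) or complete (+Fe+Zn, the control). RNA came from roots and shoots of a single inbred, in triplicates, so fewer cells of a type and less RNA per cell cannot be told apart. The study asked how single and combined Fe and Zn deficiency change transcripts in each organ, and the aeration of the solution is not given in the sources used here.

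Values are on the log2 scale, and a difference of 1 is a 2-fold difference. Every array had the same lowest value, 2.24, and a transcript at this floor was not above background. Levels of different probe sets are not compared, since probe sets differ in how they bind. Between 21.6 and 29.3% of probe sets were at the floor of an array, and array medians lay between 3.84 and 4.21. Of 21 leaf probe sets, such as those for light-harvesting proteins, 16 were higher on all shoot arrays than on all root arrays, and neither of the 2 root probe sets on the list separated the organs. The 3 root –Fe–Zn arrays stood apart from each other, with correlations between replicates of 0.952 to 0.987, against 0.996 for root +Fe+Zn. Their BioB spike signal averaged 12.42 ± 2.36, against 5.41 ± 0.72 for root +Fe+Zn (SD, n = 3 each), and their 18S rRNA signal averaged 8.95 ± 1.15, against 5.18 ± 0.73. The shoot –Fe–Zn arrays correlated at 0.974 to 0.988, against 0.998 for shoot +Fe+Zn, and their BioB signal averaged 6.77 ± 0.67, against 4.71 ± 0.13 (SD, n = 3 each). The signal of the middle minus the 3′ probe sets of 3 control transcripts, a sign of RNA integrity and labelling, averaged -6.27 ± 0.33 in shoot –Fe, against -9.26 ± 0.08 in shoot +Fe+Zn (SD, n = 3 each). In root –Fe–Zn this signal averaged -5.68 ± 2.01, the widest spread of any group, against -7.09 ± 0.14 in root +Fe+Zn (SD, n = 3 each). Replicates are those the labels name, and p-values measure only the spread between them. Groups are also those of the deposited labels, which conflict with fold changes the study printed. For eno2 (Zm.410.1.A1_at) and phi1 (Zm.3318.1.S1_at) the study printed rises in shoot –Fe–Zn. The deposited values gave changes of -3.06 and -2.74 there. For both genes the printed shoot –Zn and –Fe folds match differences from the arrays deposited as shoot –Fe–Zn, not from the deposited control. The printed root –Fe folds match the arrays deposited as root –Fe–Zn. The printed –Fe–Zn folds match arrays deposited as the other organ, shoot +Fe+Zn for the root and root –Fe for the shoot. The leaf probe sets went with the deposited organs. They do not separate the nutrient solutions, and which labels hold for these was not tested. If the arrays labelled shoot –Fe–Zn were the control, the pdc2 rise given below would be a fall. adh2 would then be higher in shoot –Zn (8.05) and shoot –Fe (7.97) than in the control (7.26). For adh1, shoot –Fe (7.08) would be set against 6.73. If the arrays labelled root –Fe–Zn were –Fe roots, the pdc1 values at the floor would belong to –Fe. Of the stress comparisons below, only root –Zn goes with the printed folds of these genes.

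By the deposited labels, pdc2 showed the largest measured rise of the 5 genes, in shoots without Fe and Zn. The 1 pdc1 probe set with clear signal, found in roots, was higher without Zn and at the floor without both metals. adh1 was higher in the shoot and lower in the root without Fe, and adh2 was lower in every organ and stress except –Zn roots, where it did not pass the test.

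**Figure D1:**
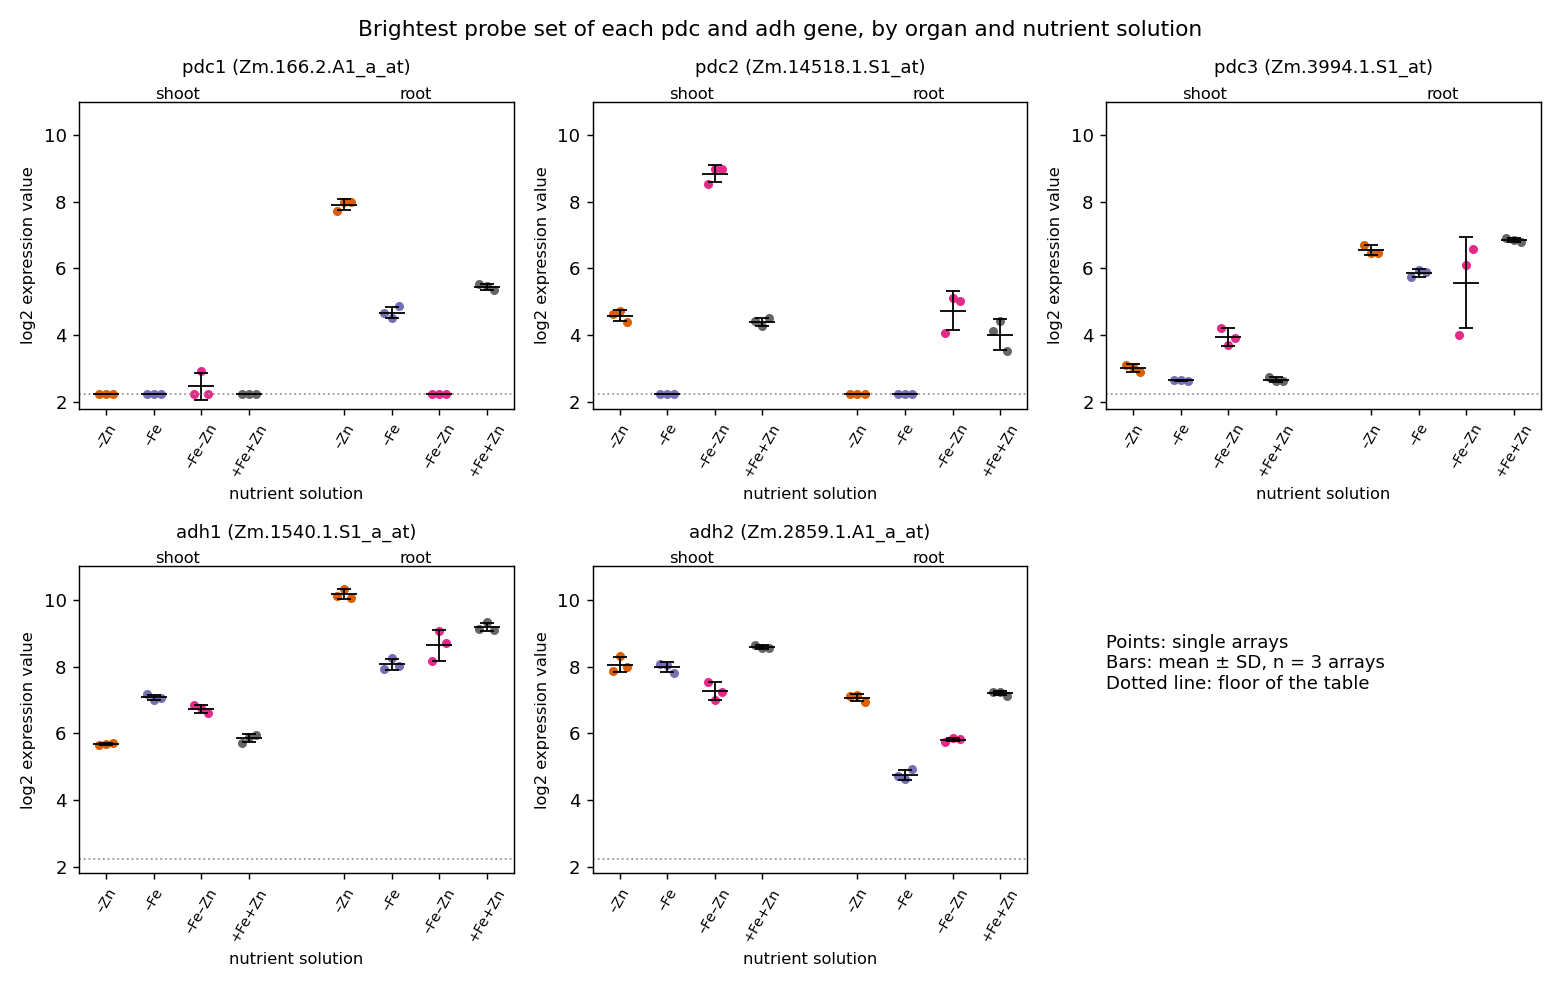
Log2 expression value (vertical axis) of the brightest probe set of each of the 5 genes in the 4 nutrient solutions, shoot on the left and root on the right of each panel. Points are arrays, bars are mean ± SD (n = 3) and the dotted line is the floor at 2.24. The pdc2 values of shoot –Fe–Zn, 8.54 to 8.996, lie above those of all other groups, and the pdc1 values of root –Zn, 7.73 to 8.01, do so for pdc1.

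The brightest pdc2 probe set, Zm.14518.1.S1_at, read 8.54, 8.98 and 8.996 in shoot –Fe–Zn, against 4.43, 4.26 and 4.51 in shoot +Fe+Zn. The groups did not overlap, and the change was 4.44 ± 0.23 (SE, limma, adjusted p = 6.2e-11), a 21.7-fold difference. Of all 17734 probe sets, 27 rose by more in this comparison.

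A pdc2 probe set built on another source sequence, Zm.10317.1.S1_at, read 6.38, 6.69 and 6.59 in shoot –Fe–Zn, against 2.64, 2.56 and 2.56 in shoot +Fe+Zn. Again no array of one group reached the other, and the change was 3.97 ± 0.21 (adjusted p = 6.2e-11), a 15.6-fold difference. The probe sets thus gave rises of like size in these shoots, with a difference of 0.47 ± 0.30 between them (adjusted p = 0.25 over 536 pairs of probe sets of the same gene).

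In shoots that lacked 1 metal the probe sets of pdc2 parted. Without Fe, Zm.14518.1.S1_at was at the floor on all 3 arrays, a change of -2.16 ± 0.23 and a level at least 4.48-fold lower (adjusted p = 6.7e-07). Zm.10317.1.S1_at read 2.96, 2.85 and 3.30 in the same shoots, all above the control arrays, and the change of 0.45 ± 0.21 did not pass the test (adjusted p = 0.11). It passed in a fit of the shoot arrays alone (adjusted p = 0.048) and without the root –Fe–Zn arrays (adjusted p = 0.032). The changes differed by -2.61 ± 0.30 (adjusted p = 2.5e-06).

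Without Zn it was Zm.10317.1.S1_at that moved in the shoot. It read 4.67, 4.20 and 4.60 in shoot –Zn, all above the 2.64, 2.56 and 2.56 of shoot +Fe+Zn, a rise of 1.90 ± 0.21 (adjusted p = 8.8e-07). Zm.14518.1.S1_at read 4.62, 4.72 and 4.39 there, against 4.43, 4.26 and 4.51 in shoot +Fe+Zn. These values overlapped, the change was 0.18 ± 0.23 (adjusted p = 0.67), and the changes of the pair differed by -1.73 ± 0.30 (adjusted p = 0.00019).

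In the root the disagreement under –Zn was one of direction. Zm.14518.1.S1_at was at the floor on all 3 root –Zn arrays, against 4.11, 4.42 and 3.52 in root +Fe+Zn, a change of -1.78 ± 0.23 (adjusted p = 1.7e-05). Zm.10317.1.S1_at read 2.94, 3.29 and 3.56 in root –Zn and was at the floor on the 3 root +Fe+Zn arrays, so that its rise of 1.02 ± 0.21, at least 2.03-fold, is a lower bound (adjusted p = 0.0013). The pair differed by -2.80 ± 0.30 (adjusted p = 2.2e-06), so the array gives no single direction for pdc2 in –Zn roots.

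Without Fe, root values of Zm.14518.1.S1_at were at 2.25, 2.24 and 2.24, a change of -1.78 ± 0.23 from the same control (adjusted p = 1.3e-05), while Zm.10317.1.S1_at changed by 0.18 ± 0.21 (adjusted p = 0.75). The difference of the pair was -1.96 ± 0.30 (adjusted p = 0.0001).

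Without both metals, root pdc2 was higher by both probe sets, but by amounts near the spread of the –Fe–Zn arrays. Zm.14518.1.S1_at read 4.05, 5.12 and 5.02 in root –Fe–Zn, the lowest of which lay inside the control range, and the change was 0.71 ± 0.23 (adjusted p = 0.028). Zm.10317.1.S1_at read 3.10, 3.53 and 2.51, against the floor in the control, a change of 0.81 ± 0.21 that is again a lower bound (adjusted p = 0.0063). In a fit of only these 2 groups neither passed (adjusted p = 0.40 for Zm.14518.1.S1_at and adjusted p = 0.19 for Zm.10317.1.S1_at). With the middle minus 3′ signal as a covariate the change of Zm.14518.1.S1_at was 0.32 (adjusted p = 0.25), and Zm.14518.1.S1_at also missed the threshold without root –Fe–Zn replicate 2 (change 0.52, adjusted p = 0.13), without its replicate 3 (0.57, adjusted p = 0.11) and without root +Fe+Zn replicate 3 (0.46, adjusted p = 0.17).

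The 2 other pdc2 probe sets carried little signal. Zm.14518.1.A1_at, from the same source sequence as Zm.14518.1.S1_at, was at the floor on 22 of 24 arrays and never above 2.72. Zm.14518.1.S1_s_at, a type of probe set that can match transcripts of several genes, was at the floor on 18 arrays. Its one value above 2.41 was 3.98, in shoot –Fe–Zn replicate 1, and without that array its change in these shoots was -0.14 in place of 0.44. Neither passed the test against +Fe+Zn in any comparison.

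**Figure D2:**
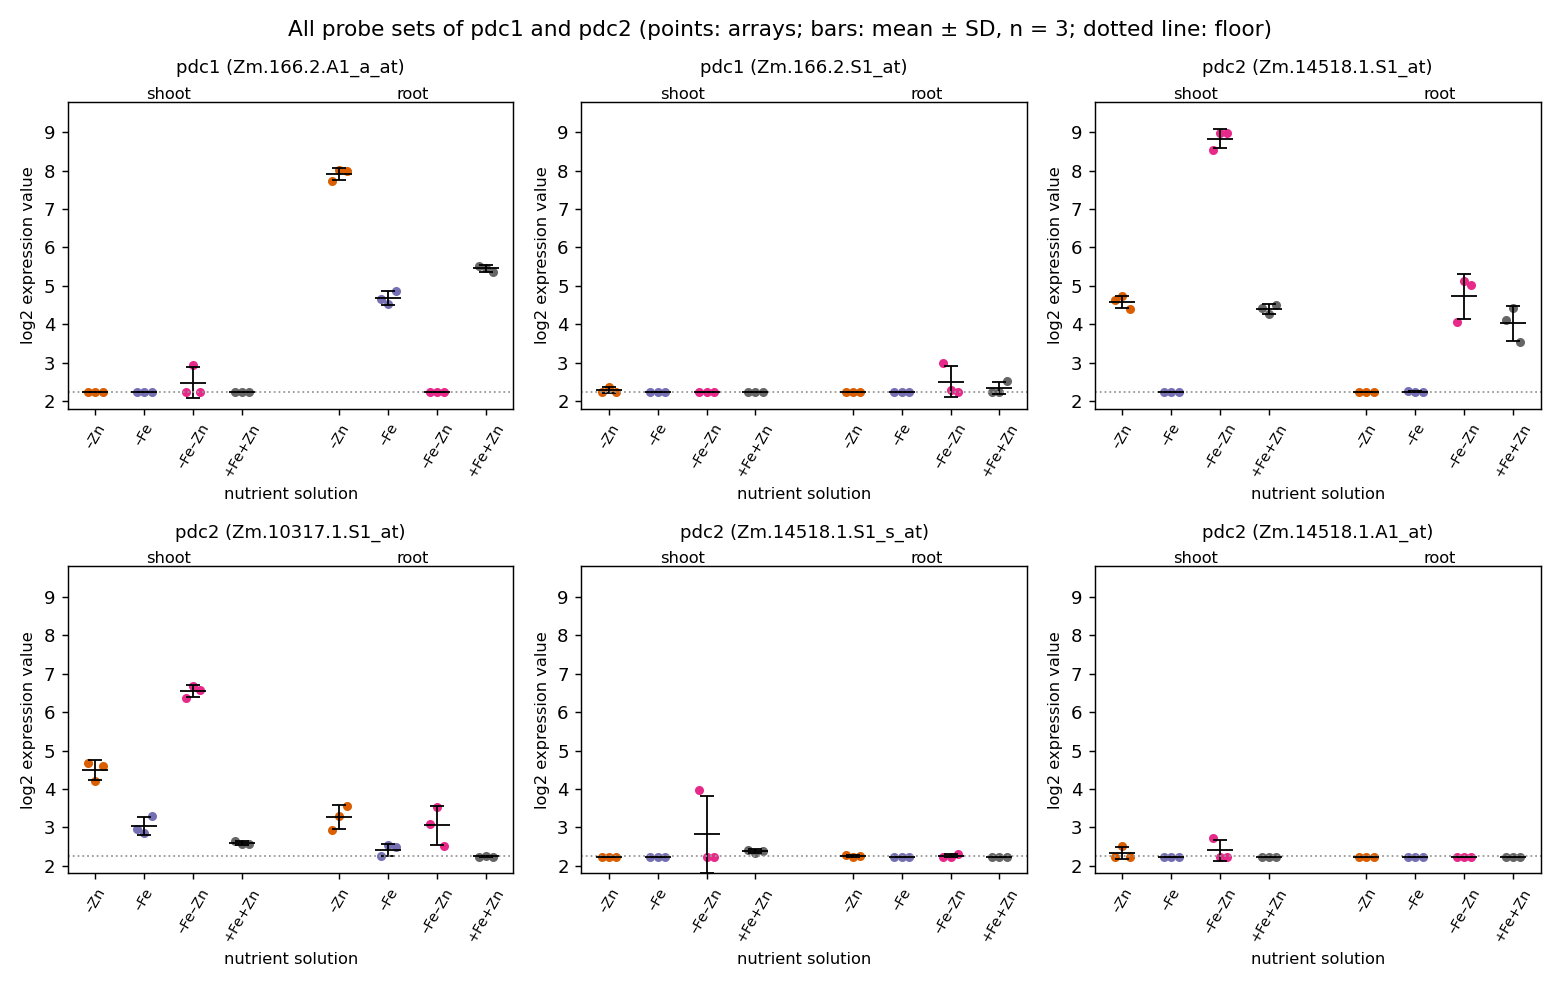
Log2 expression value of the 2 probe sets of pdc1 and the 4 of pdc2 in the 4 nutrient solutions, shoot on the left and root on the right of each panel (points: arrays; bars: mean ± SD, n = 3; dotted line: floor at 2.24). In root –Zn, Zm.14518.1.S1_at lies at the floor while Zm.10317.1.S1_at lies at 2.94 to 3.56, and 3 of the 6 probe sets stay below 4 on every array.

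Among the 8 group means of Zm.14518.1.S1_at, shoot –Fe–Zn came first at 8.84. Root –Fe–Zn (4.73), shoot –Zn (4.58), shoot +Fe+Zn (4.40) and root +Fe+Zn (4.02) followed, and neighbours among these 4 overlapped. Root –Fe, root –Zn and shoot –Fe were at the floor.

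pdc1 was seen by 1 of its 2 probe sets. Zm.166.2.A1_a_at, whose suffix marks probes for alternative transcripts of a gene, read 7.73, 8.007 and 8.002 in root –Zn, against 5.53, 5.47 and 5.36 in root +Fe+Zn. All –Zn arrays were above all control arrays, and the rise of 2.46 ± 0.13 was 5.50-fold (adjusted p = 5.2e-10). Of all probe sets, 26 rose by more in –Zn roots.

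In root –Fe the same probe set read 4.65, 4.52 and 4.87, below every control array, a change of -0.77 ± 0.13 (adjusted p = 0.00027). In root –Fe–Zn it was at the floor on all 3 arrays, a change of -3.22 ± 0.13 and a level at least 9.29-fold lower (adjusted p = 8.2e-12). With the middle minus 3′ signal as a covariate this change was -3.19, and with any 1 array left out it was between -3.26 and -3.18.

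In shoots pdc1 was at the floor on 11 of 12 arrays, the exception being 2.94 in shoot –Fe–Zn replicate 2. Its order over groups was therefore root –Zn (7.91), root +Fe+Zn (5.45) and root –Fe (4.68), without overlap between neighbours, and then the groups at or near the floor.

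The other pdc1 probe set, Zm.166.2.S1_at, is annotated to the same source sequence but was at the floor on 20 of 24 arrays, with a highest value of 2.98 in root –Fe–Zn replicate 1. It was above the floor on 2 of the 3 root –Fe–Zn arrays, where the other probe set was at the floor. It passed the test in no comparison with +Fe+Zn. The changes of the pair differed by 2.55 ± 0.19 in root –Zn (adjusted p = 1.8e-08), by -0.68 ± 0.19 in root –Fe (adjusted p = 0.015) and by -3.39 ± 0.19 in root –Fe–Zn (adjusted p = 4.8e-10). The second of these was lost without root +Fe+Zn replicate 1 (-0.60, adjusted p = 0.071) or replicate 2 (-0.62, adjusted p = 0.062) and without root –Fe replicate 2 (-0.60, adjusted p = 0.072). A probe set at the floor in the control cannot show a fall.

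Over the 7 pairs of probe sets of pdc1 and pdc2, 3 differed in their change without Zn in the shoot, 3 without Fe and 4 without both metals. In the root, 5, 4 and 3 did so in the same order of stresses. Over the 536 pairs of 222 genes on the array, 34.0, 26.3 and 45.0% differed in the shoot and 17.4, 21.5 and 33.2% in the root. In only 1 of the 7 pairs, that of Zm.14518.1.S1_at and Zm.10317.1.S1_at, did both probe sets rise clear of the floor.

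pdc3, the remaining pyruvate decarboxylase gene, was a root transcript by level. It read 2.74, 2.64 and 2.64 in shoot +Fe+Zn, against 6.90, 6.86 and 6.80 in root +Fe+Zn, and shoot minus root was -4.18 ± 0.40 (adjusted p = 4.5e-08).

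In shoot –Fe–Zn, pdc3 read 4.23, 3.70 and 3.91, above every shoot +Fe+Zn array, a rise of 1.28 ± 0.40 (adjusted p = 0.014). After quantile normalization the rise was 1.01 and did not pass (adjusted p = 0.072). In shoot –Zn it read 3.11, 3.04 and 2.89, a change of 0.35 ± 0.40 (adjusted p = 0.61), although no –Zn array overlapped the control. The standard error is shared by all groups, of which root –Fe–Zn had an SD of 1.37 and the others at most 0.27 (n = 3 each). In a fit of the shoot arrays alone the same change passed (adjusted p = 0.044). In shoot –Fe it read 2.67, 2.64 and 2.64, a change of -0.02 (adjusted p = 1). With the middle minus 3′ signal as a covariate this became -1.83 and passed (adjusted p = 5.1e-05). A fall of that size is larger than the distance of the control from the floor and could not have been read. Within groups the covariate varied most in root –Fe–Zn (SD 2.01), followed by root –Zn (SD 0.47, n = 3 each).

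In root –Fe–Zn, pdc3 read 4.02, 6.11 and 6.60, and the change was -1.28 ± 0.40 (adjusted p = 0.022). Without replicate 1, the lowest array, it was -0.50 and still passed, and with the covariate it was -2.14. The call was lost after quantile normalization (-1.01, adjusted p = 0.11), in a fit of the root arrays alone (adjusted p = 0.14) and without root +Fe+Zn replicate 1 (-1.26, adjusted p = 0.060) or replicate 2 (-1.28, adjusted p = 0.057). In root –Fe, pdc3 read 5.74, 5.95 and 5.89, below every control array, with a change of -0.99 ± 0.40 that missed the threshold (adjusted p = 0.083). Without the root –Fe–Zn arrays in the fit this change passed (adjusted p = 2.5e-06). In root –Zn it read 6.71, 6.47 and 6.45, a change of -0.31 ± 0.40 (adjusted p = 0.86). This too passed without the root –Fe–Zn arrays (adjusted p = 0.037), and with the covariate it was -0.85 (adjusted p = 0.0021).

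adh1, measured by Zm.1540.1.S1_a_at, was above the floor on all arrays. In root –Zn it read 10.11, 10.33 and 10.05, against 9.13, 9.34 and 9.10 in root +Fe+Zn, with no overlap. The rise was 0.97 ± 0.16 (adjusted p = 0.0002), or 1.97-fold. In shoot –Zn it read 5.64, 5.68 and 5.71, against 5.72, 5.90 and 5.96 in shoot +Fe+Zn, a change of -0.18 ± 0.16 (adjusted p = 0.44).

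Without Fe the organs went opposite ways. adh1 read 7.17, 7.003 and 7.06 in shoot –Fe, a rise of 1.22 ± 0.16 (adjusted p = 8.1e-06). It read 7.92, 8.24 and 8.03 in root –Fe, a change of -1.12 ± 0.16 (adjusted p = 3.7e-05). The shoot change exceeded the root change by 2.34 ± 0.23 (adjusted p = 4e-07), and neither group overlapped its control. The middle minus 3′ signal differed between shoot –Fe and its control, and with it as a covariate the shoot rise was 0.58 (adjusted p = 0.0079).

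Without both metals adh1 read 6.85, 6.75 and 6.60 in the shoot, a rise of 0.87 ± 0.16 (adjusted p = 0.00019). In root –Fe–Zn it read 8.15, 9.08 and 8.69, a change of -0.54 ± 0.16 (adjusted p = 0.016), and the highest of these arrays lay just under the lowest control array. This fall did not pass after median centring (-0.29, adjusted p = 0.15) or quantile normalization (-0.33, adjusted p = 0.082), in fits of the root arrays (adjusted p = 0.10) or the 2 groups alone (adjusted p = 0.33), or without root –Fe–Zn replicate 1 (-0.30, adjusted p = 0.068) or root +Fe+Zn replicate 2 (-0.47, adjusted p = 0.073). With the covariate it was -0.84 and passed.

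All 4 root means of adh1 lay above all 4 shoot means. In descending order they were root –Zn (10.16), root +Fe+Zn (9.19), root –Fe–Zn (8.64), root –Fe (8.07), shoot –Fe (7.08), shoot –Fe–Zn (6.73), shoot +Fe+Zn (5.86) and shoot –Zn (5.68). Root –Fe–Zn and root –Fe were the only neighbours that overlapped.

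adh2, measured by Zm.2859.1.A1_a_at, encodes the other maize alcohol dehydrogenase. In root –Fe it read 4.72, 4.62 and 4.92, against 7.24, 7.24 and 7.12 in root +Fe+Zn, far outside the control range. The change was -2.45 ± 0.12, a 5.45-fold lower level (adjusted p = 8.4e-11), and 130 of all probe sets had a lower change in –Fe roots.

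In root –Fe–Zn adh2 read 5.75, 5.85 and 5.83, between root –Fe and the control without overlap, a change of -1.39 ± 0.12 (adjusted p = 1.3e-07). Its spread here was small (SD 0.05, n = 3) on arrays where that of pdc3 was large (SD 1.37). In root –Zn it read 7.11, 7.13 and 6.94, a change of -0.14 ± 0.12 (adjusted p = 0.60).

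In the shoot adh2 was lower under each stress. Shoots without both metals read 7.53, 6.997 and 7.24, against 8.65, 8.55 and 8.56 in the complete solution, a change of -1.33 ± 0.12 (adjusted p = 8.6e-08). Shoots without Fe read 8.08, 8.04 and 7.80, a change of -0.61 ± 0.12 (adjusted p = 0.00067). Shoots without Zn read 7.87, 8.30 and 7.98, a change of -0.53 ± 0.12 (adjusted p = 0.0019). No stress array reached the control, but the change without Zn did not pass after quantile normalization (-0.22, adjusted p = 0.16).

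The order of adh2 differed from that of adh1. Shoot +Fe+Zn came first (8.59), then shoot –Zn (8.05) and shoot –Fe (7.97), which overlapped. Shoot –Fe–Zn (7.26), root +Fe+Zn (7.20) and root –Zn (7.06) formed a group of overlapping neighbours, and root –Fe–Zn (5.81) and root –Fe (4.75) came last.

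**Figure D3:**
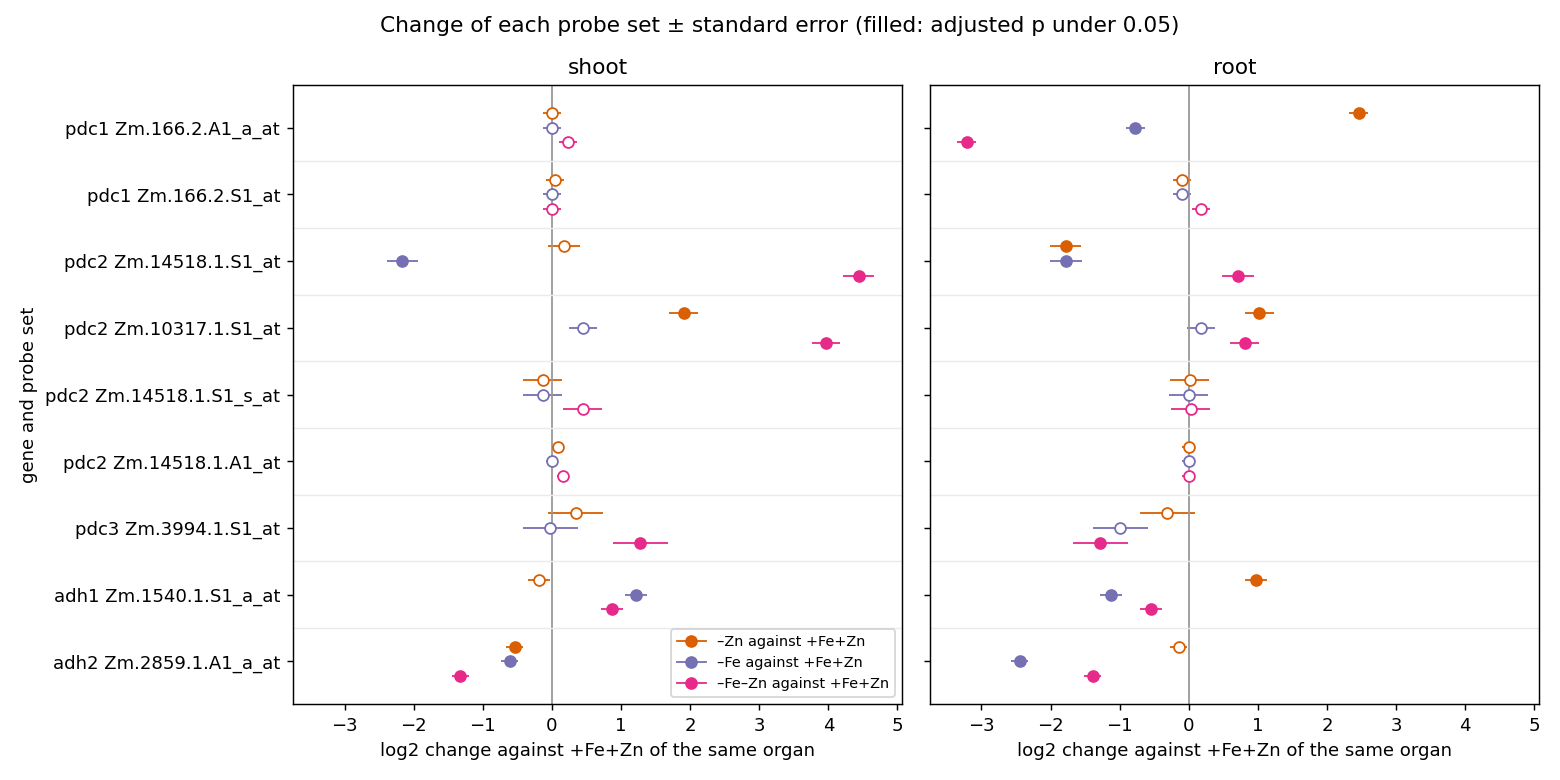
Log2 change of each of the 9 probe sets against +Fe+Zn of the same organ (horizontal axis, with standard error) for –Zn, –Fe and –Fe–Zn, shoot on the left and root on the right. Filled points passed an adjusted p of 0.05. The 2 filled points above 3 belong to pdc2 in shoot –Fe–Zn, and the adh2 points lie left of 0 in both organs.

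Counted over the 9 probe sets, 4 were higher and 1 lower in shoots without both metals, where 44.6% of all probe sets passed (22.4% higher and 22.2% lower). Shoots without Fe had 1 higher and 2 lower, against 33.4% of all called (17.0% higher and 16.4% lower). Shoots without Zn had 1 higher and 1 lower, against 39.3% (20.3% higher and 19.0% lower). Roots without both metals had 2 higher and 4 lower, against 28.1% of all (8.09% higher and 20.0% lower). Roots without Fe had 4 lower, against 10.9% of all, and 0 higher, against 14.7% of all (25.6% in either direction). Roots without Zn had 3 higher and 1 lower, against 21.9% (13.4% higher and 8.46% lower). At the threshold of the study's methods, an unadjusted p under 0.05 and 2-fold, 1, 2 and 4 of the 9 passed in the shoot for –Zn, –Fe and the double deficiency, against 19.2, 16.2 and 24.4% of all, and 3 in each root comparison, against 7.89, 9.60 and 11.1%. With 9 probe sets of 5 genes, of which several share a transcript, these shares are a description. The 3 comparisons of an organ share their control arrays, so their changes are not independent of each other.

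Between the organs, 4 of the 9 probe sets differed in the complete solution, where 51.5% of all probe sets did. Shoot minus root was -3.33 for adh1, -3.22 for pdc1, at the floor in the shoot, -4.18 for pdc3 and 1.38 for adh2. adh2 was higher in the shoot in all 4 solutions, by 0.99 in –Zn, 3.22 in –Fe and 1.45 in –Fe–Zn. adh1 was lower in the shoot in all 4, with a difference of -4.49 in –Zn, -1.91 in –Fe–Zn and -0.99 in –Fe. For pdc2, Zm.14518.1.S1_at differed by 0.38 ± 0.23 in +Fe+Zn, which did not pass (adjusted p = 0.20), and in –Fe–Zn it was higher in the shoot by 4.11 ± 0.23 (adjusted p = 5.6e-11). In all, 6 probe sets differed between organs in –Zn, 5 in –Fe and 5 in –Fe–Zn, against 54.0, 52.8 and 51.1% of all.

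The change differed between organs for 4 of the 9 probe sets without Zn, for 3 without Fe and for 5 without both, where 35.2, 30.4 and 42.1% of all probe sets did. The call for pdc1 without Fe carries the root change alone, since Zm.166.2.A1_a_at was at the floor in both shoot groups and could show no fall there. Its call without both metals likewise rests on the root fall, apart from shoot –Fe–Zn replicate 2 (2.94). Under –Fe–Zn the difference was 3.73 ± 0.33 for pdc2 by Zm.14518.1.S1_at (adjusted p = 6.6e-08). In a test of whether the combined deficiency departed from the sum of the single ones, 2 probe sets passed in the shoot, both of pdc2, and 3 in the root, for pdc1, pdc2 and adh2, against 24.4 and 35.7% of all. For pdc2 in the shoot the departure was 6.42 ± 0.33 by Zm.14518.1.S1_at, which was at the floor in shoot –Fe (adjusted p = 1.5e-10), and 1.61 ± 0.29 by Zm.10317.1.S1_at (adjusted p = 0.00043).

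Around these genes, the array names 28 probe sets of 21 genes of glycolysis, pyruvate use and the response to low oxygen. Glycolysis delivers the pyruvate, pyruvate dehydrogenase competes for it, aldehyde dehydrogenases of the rf2 family take up aldehydes, and nonsymbiotic hemoglobin is a gene known for its rise when oxygen is short.

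In shoot –Fe–Zn, 10 of the 28 were higher and 11 lower, where 22.4% of all probe sets were higher and 22.2% lower, with a median change of -0.04 against 0.00 over all probe sets. The largest rise was that of the hemoglobin Hb, 7.16 ± 0.53 in shoot –Fe–Zn against 2.71 ± 0.30 in shoot +Fe+Zn (SD, n = 3 each), a change of 4.45 (adjusted p = 7.2e-10). The other hemoglobin on the list, Hb2, changed by -0.48 there and did not pass (adjusted p = 0.050). The largest fall was -3.46, by gpc1 probe set Zm.3765.1.S1_s_at for cytosolic glyceraldehyde-3-phosphate dehydrogenase. The second gpc1 probe set, Zm.3765.2.S1_at, rose by 0.63 there, so the direction of gpc1 depended on the probe set.

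In shoot –Fe, 11 were higher and 2 lower, against 17.0 and 16.4% of all (median 0.33), from 3.55 for gpc1 (Zm.3765.1.S1_s_at) to -1.51 for the sucrose synthase gene sus2. In shoot –Zn, 3 were higher and 13 lower, against 20.3 and 19.0% of all (median -0.39), from 0.76 for Hb to -4.06 for the enolase gene eno2, which averaged 4.92 ± 0.36 in shoot –Zn, against 8.98 ± 0.09 in shoot +Fe+Zn (SD, n = 3 each).

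In root –Zn, 6 were higher and 2 lower, against 13.4 and 8.46% of all (median 0.12), from 2.37 for the enolase gene eno1 (Zm.14043.3.S1_a_at) to -7.06 for gpc1 (Zm.3765.2.S1_at). This gpc1 probe set averaged 3.44 ± 0.43 in root –Zn and 10.50 ± 0.11 in root +Fe+Zn (SD, n = 3 each), while Zm.3765.1.S1_s_at changed by 0.27 and did not pass. In root –Fe, 1 was higher, eno1 by 0.19 (Zm.14043.1.S1_a_at), and 4 were lower, against 14.7 and 10.9% of all (median -0.23), sus1 most at -1.73. In root –Fe–Zn, 3 were higher and 6 lower, against 8.09 and 20.0% of all (median 0.10), from 2.23 for gpc3 (Zm.274.3.S1_x_at) to -1.93 for gpc1 (Zm.3765.2.S1_at). Medians over all probe sets were 0.00 in each of these comparisons.

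**Figure D4:**
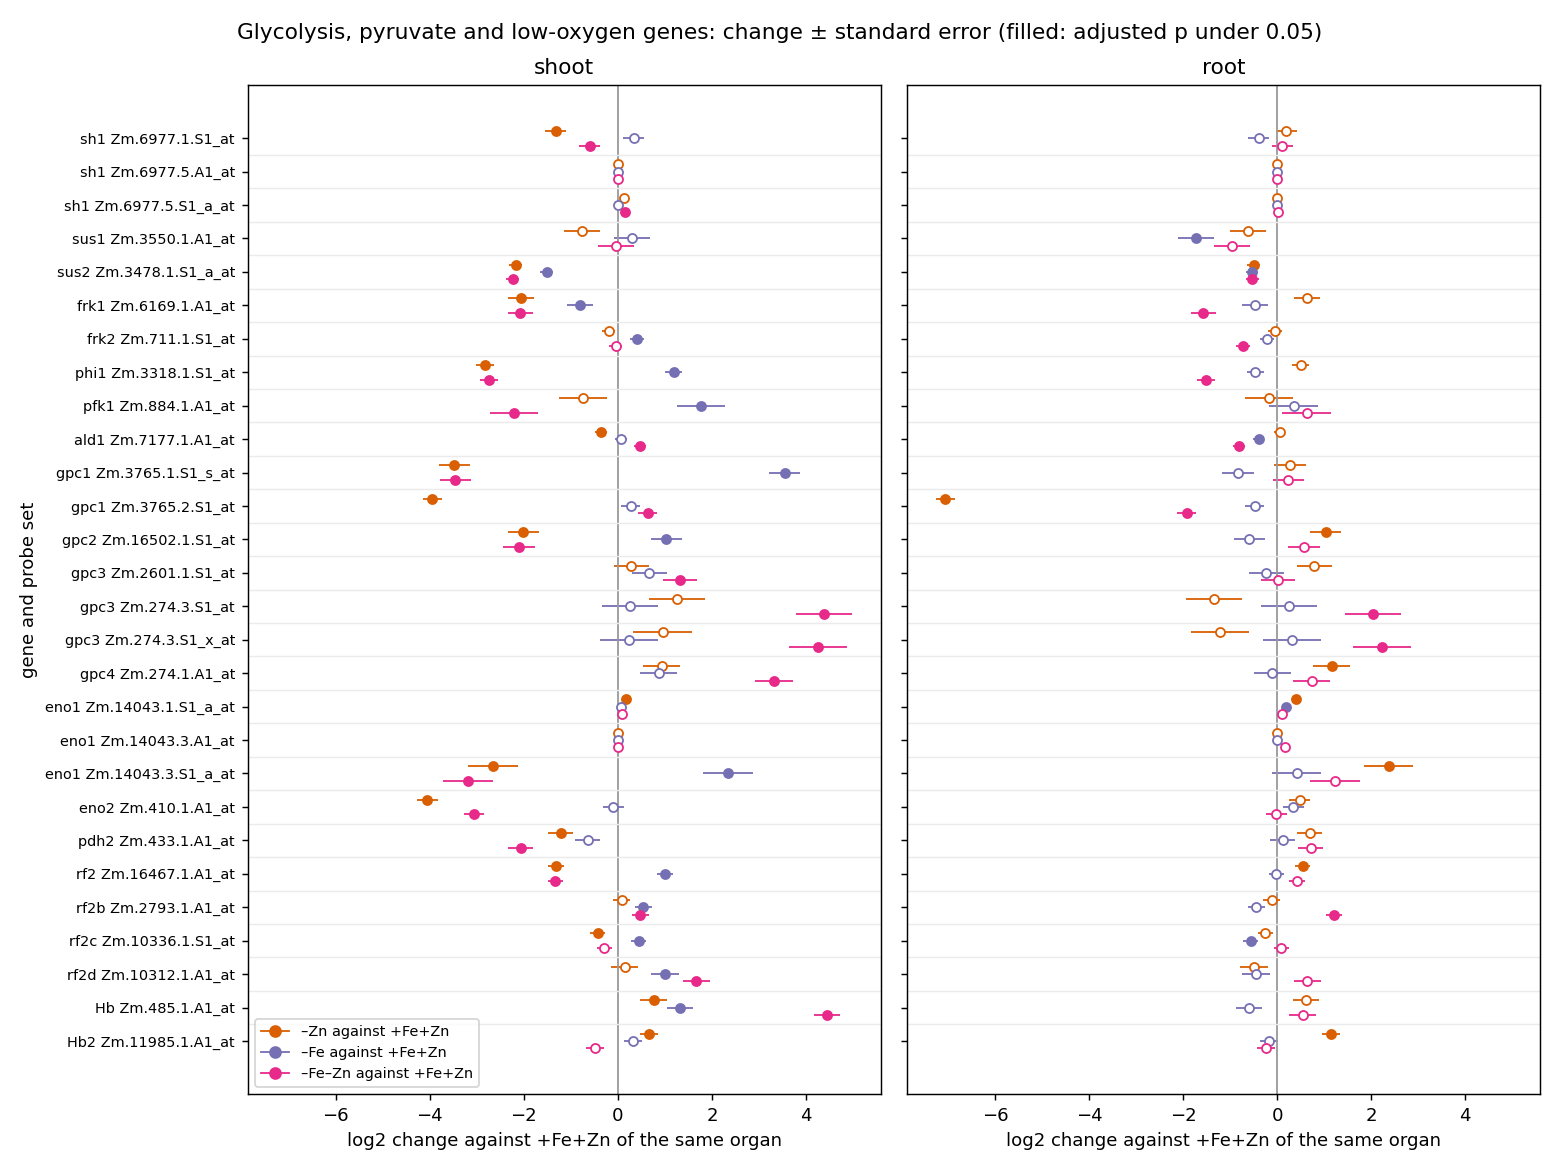
Log2 change against +Fe+Zn of the same organ, with standard error, for the 28 probe sets of glycolysis, pyruvate use and low-oxygen genes under –Zn, –Fe and –Fe–Zn, shoot on the left and root on the right. Filled points passed an adjusted p of 0.05. The hemoglobin gene Hb lies at 4.45 in shoot –Fe–Zn, and gpc1 Zm.3765.2.S1_at lies at -7.06 in root –Zn.

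The genes whose group means most resembled each of the 5 over the 8 groups were sought among about 1080 named probe sets with a group mean at least 1 above the floor, as a description. Points of the same organ share its cell make-up. Closest to pdc1 was ITPK1 (r = 0.99), followed by pdi4 and met2 (both r = 0.95). For pdc2 (Zm.14518.1.S1_at) they were aox3 (r = 0.91), opr8 (0.90) and gst7 (0.89), of which aox3 encodes a mitochondrial alternative oxidase and gst7 a glutathione transferase.

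For pdc3 they were 2 probe sets of IIG1 (both r = 0.98) and ald1 (0.98), an aldolase gene of glycolysis. For adh1 they were KIN9 (0.95), pglcat8 (0.95) and gpc3 (Zm.2601.1.S1_at, 0.95), and for adh2 aba1 (0.96), DBB11 (0.95) and m20 (0.95). Among the 5 themselves, adh1 was most like pdc3 (0.91) and pdc1 (0.82), whereas adh1 and adh2 ran apart (-0.52) and pdc2 resembled none of the others (0.19 with adh2, -0.23 with pdc3, -0.39 with adh1 and -0.46 with pdc1). By likeness to adh1, pdc3 held only rank 44 and pdc1 rank 192 of 1080 probe sets.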

How the data were processed

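Root and shoot RNA, 3 replicates in each of 4 solutions, was hybridised to 24 Affymetrix GeneChip Maize Genome arrays. The authors deposited log2 expression values per probe set. The methods name GCRMA for background correction, normalisation and summarisation, whereas the submitters' processing notes list affy, RMA and limma, without versions. The precision is limited by the number of arrays. Genes were named through the platform annotation and a RefSeq gene table, by which 1452 of 17734 probe sets had 1 gene, 1 had several and 16281 had none. Of the 1452, 1377 matched the gene table.

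From the deposited values, 1 limma model (version 3.58.1, R 4.3.3) with 8 group means gave all contrasts of a stress with +Fe+Zn, of shoot with root and of their interactions. The p-values were adjusted by Benjamini-Hochberg over all 17734 probe sets, with 0.05 as the threshold. The difference between probe sets of a gene was fitted likewise over 536 pairs. With 3 against 3 arrays an exact permutation test cannot go below 0.1, so none was used. The procedure was tested on simulated data.

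All probe sets of the 5 genes were named. Further genes were named as the 3 most correlated over group means and the largest rise and fall in each comparison of the pathway list, except where stated. Symbols of the pathway list that were ambiguous in the annotation were left out. The members and lists were chosen with earlier results of these data known. Alternatives were other thresholds, samples in the fit, scaling, a filter on dim probe sets, variance priors, the replicate number as a block, a covariate for signal loss between 3′ and middle probe sets, and each array left out in turn. A fit without the root –Fe–Zn arrays was added after seeing the data. Replicate numbers did not pair the samples. No sequences are shown.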

Additional observations from a re-analysis of the deposited data

Results flagged for a closer look

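Differences of a change between shoot and root, and departures of the combined deficiency from the sum of the single ones, are listed here where the test of the difference itself passed (limma, adjusted p under 0.05). Values are log2 and the first kind is the shoot change minus the root change.

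Under –Zn the difference between organs was -1.16 for adh1 (adjusted p = 0.00058, and -0.77 after quantile normalization), -2.46 for pdc1 Zm.166.2.A1_a_at (3.7e-08), which was at the floor in both shoot groups and so carries the root change alone, 1.96 for pdc2 Zm.14518.1.S1_at (0.00013) and 0.88 for pdc2 Zm.10317.1.S1_at (0.025). The last was lost after quantile normalization (0.69, adjusted p = 0.14), and without root –Zn replicate 1, shoot –Zn replicate 1 or shoot –Zn replicate 3 its highest adjusted p was 0.073.

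Under –Fe it was 2.34 for adh1 (4e-07), 1.83 for adh2 (3.3e-07) and 0.77 for pdc1 Zm.166.2.A1_a_at (0.0045). This pdc1 probe set was at the floor in both shoot groups, so 0.77 is the root change with its sign turned, a fall in the shoot could not have been seen, and no difference between the organs follows from it. For adh2 both organs were lower than their controls, the root by more. Under –Fe–Zn it was 1.42 for adh1 (6.1e-05), 3.45 for pdc1 Zm.166.2.A1_a_at (2.3e-10), 3.73 for pdc2 Zm.14518.1.S1_at (6.6e-08), 3.16 for pdc2 Zm.10317.1.S1_at (1.3e-07) and 2.56 for pdc3 (0.0013). The pdc1 value of 3.45 carries the root fall and shoot –Fe–Zn replicate 2 (2.94). As shoot +Fe+Zn was at the floor, a pdc1 fall in the shoot could not have been seen, and no difference between the organs follows. For pdc3 the difference was 1.78 without root –Fe–Zn replicate 1.

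The departure of –Fe–Zn from the sum of –Fe and –Zn in the shoot was 6.42 for pdc2 Zm.14518.1.S1_at (1.5e-10) and 1.61 for pdc2 Zm.10317.1.S1_at (0.00043). In the root it was -4.90 for pdc1 Zm.166.2.A1_a_at (3.1e-12), 4.27 for pdc2 Zm.14518.1.S1_at (1.8e-08) and 1.20 for adh2 (3e-05). Groups at the floor enter each of the pdc1 values and those of pdc2 Zm.14518.1.S1_at under –Zn and in the departures, so their size is bounded by the floor. The root +Fe+Zn group of pdc2 Zm.10317.1.S1_at was also at the floor. Its organ differences of 0.88 under –Zn and 3.16 under –Fe–Zn are therefore upper bounds, and whether 0.88 would pass without the floor is unknown.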

How the results depend on the processing

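Causes of the changes below were not tested. Of 24 calls against +Fe+Zn among the 9 probe sets, 14 held under every alternative and 10 were lost under at least 1, none with a change of sign. Of the 30 comparisons that were not called, 11 passed under at least 1 alternative. The number of calls in root –Fe–Zn was 6 and became 3 at the methods' threshold (unadjusted p under 0.05 and 2-fold), 3 with an adjusted p and 2-fold, 3 in a fit per organ, 2 in a fit of the 2 groups, and 3 with the replicate block in a fit per organ. The replicate block over both organs moved no count by over 1.5 times. The number in shoot –Zn was 2 and became 1 at the methods' threshold, 1 with an adjusted p and 2-fold, 4 in a fit of the 2 groups and 1 after quantile normalization. With the covariate the counts became 5 in shoot –Fe, 5 for the organ difference under –Fe, and 5 for the departure from the sum in shoot and in root, where the main counts were 3, 3, 2 and 3. The pdc3 fall counted there in shoot –Fe is larger than the distance of its control from the floor. Within groups the covariate varied mainly in root –Fe–Zn, so values adjusted for it in all groups rest largely on those arrays. With each array left out, counts in shoot against root under –Fe–Zn ran from 5 to 8 and pairs that differed under root –Fe–Zn from 1 to 3. With only pairs clear of the floor, 1 pair being left, the counts in shoot –Zn, –Fe and –Fe–Zn were 1, 1 and 0, and in root –Zn, –Fe and –Fe–Zn 1, 1 and 0.

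Over all contrasts with single probe sets, 0 of 61 called values and 22 of 74 others took the opposite sign under an alternative, counting sizes of at least 0.005. Of values not called, 3 passed an alternative with the opposite sign and 2 that were 0.00 passed one. They were 0.25 for pdc2 Zm.14518.1.A1_at in root –Fe–Zn after median centring, 0.57 for pdc1 Zm.166.2.S1_at in shoot –Fe and 0.59 for the adh1 departure in the shoot with the covariate, and, without shoot –Fe–Zn replicate 1, -0.14 for pdc2 Zm.14518.1.S1_s_at in shoot –Fe–Zn and -0.16 for its organ difference. Leaving out single arrays gave -0.14 to 0.73 for the change and -0.16 to 0.71 for the difference. The median change of all probe sets shifted by 0.25 in root –Fe–Zn after median centring. Only 6 of the 9 probe sets passed the filter on dim probe sets, and falls to the floor are bounds.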
